A study of Arabidopsis thaliana with 36 samples.

Results

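The 8 genes described are AT4G24110, AT1G33055, AT5G10040, AT3G23170, AT4G10270, AT3G29970, AT2G17850 and AT3G10020 of Arabidopsis thaliana, which encode proteins of unknown or barely known function whose transcripts accumulate when plants run short of oxygen. They were taken by locus name. The names were selected on earlier results of these same arrays, in which hypoxia genes as a list were lower in shoots than in roots, and the value that chose each gene is not recorded. The difference between shoots and roots is therefore given without a test, and the tests over time are no independent evidence for the choice. Each gene had 1 probe set, so there were 8 members among 13513 probe sets that the probe table pairs with 1 gene. All 8 reached a signal of 40 on at least 2 arrays and were among the 15091 probe sets tested. AT4G24110, AT5G10040, AT3G29970 and AT2G17850 did so through root arrays alone.

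The arrays came from wild-type Col-0 plants grown on Murashige and Skoog medium in boxes, at 24 °C and 50% humidity with 16 h of light a day. On day 16, starting 3 h into the light period, boxes were taken from the chamber, opened and the rafts lifted as in a stress series, but no stress was given. Shoots and roots were collected at 0, 0.25, 0.5, 1, 3, 4, 6, 12 and 24 h, with 2 arrays for each tissue and time and 36 in all. Thus every group shares the genotype, the age and the handling, no group was kept from handling or deprived of oxygen on purpose, and the 12 h plants were taken 15 h after lights on. No label says whether the 2 arrays of a group came from separate plants, so p-values measure only the spread between these samples, which may be technical.

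As background, plants sense oxygen through transcription factors of the group VII ethylene response factor family. With oxygen present, plant cysteine oxidases mark these factors for breakdown, and when oxygen falls the factors persist and switch on a small set of genes shared by most cell types. That set holds the fermentation enzymes, the oxidases that shut the response off again, the repressor HRA1, and a number of proteins whose work is not known, among them members of the group described here. Sequence families give hints for 3 of them: AT4G10270 belongs to the wound-responsive family, AT3G29970 to the B12D family of small proteins, and AT2G17850 to the rhodanese family of sulfurtransferase-like proteins. No member has another as its neighbour in the TAIR10.1 gene table. AT5G10040 lies inside the span of the transcription factor gene TGA4, AT1G33055 overlaps AT1G33050, and AT4G10270 overlaps AT4G10280 and the long noncoding gene AT4G05775. What those genes add to the probe signals was not tested.

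The signal is the deposited intensity, on a scale where the trimmed mean of each array is about 100, and it orders samples for 1 gene but not genes against each other. The tissues matched their labels. For 5 photosynthesis genes (RCA, SBPASE, PSAE-1, PRK and LHCB4.2) the median signal ran from 3870 to 5390 in shoots and from 20.4 to 46.5 in roots. For 6 root genes, among them PYK10 and EXPA7, it ran from 782 to 1210 in roots and from 5.56 to 26.8 in shoots. The arrays of a group had correlations between 0.971 and 0.992, taken over probe sets. Root material on shoot arrays was gauged with 94 probe sets that had a mean of at least 512 in roots and 16-fold or more below that in shoots, by the median of their signals in percent of the root mean. This share was 5.41 and 2.33% on the 0 h shoot arrays and 1.08 to 3.36% on the others.

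**Figure D1:**
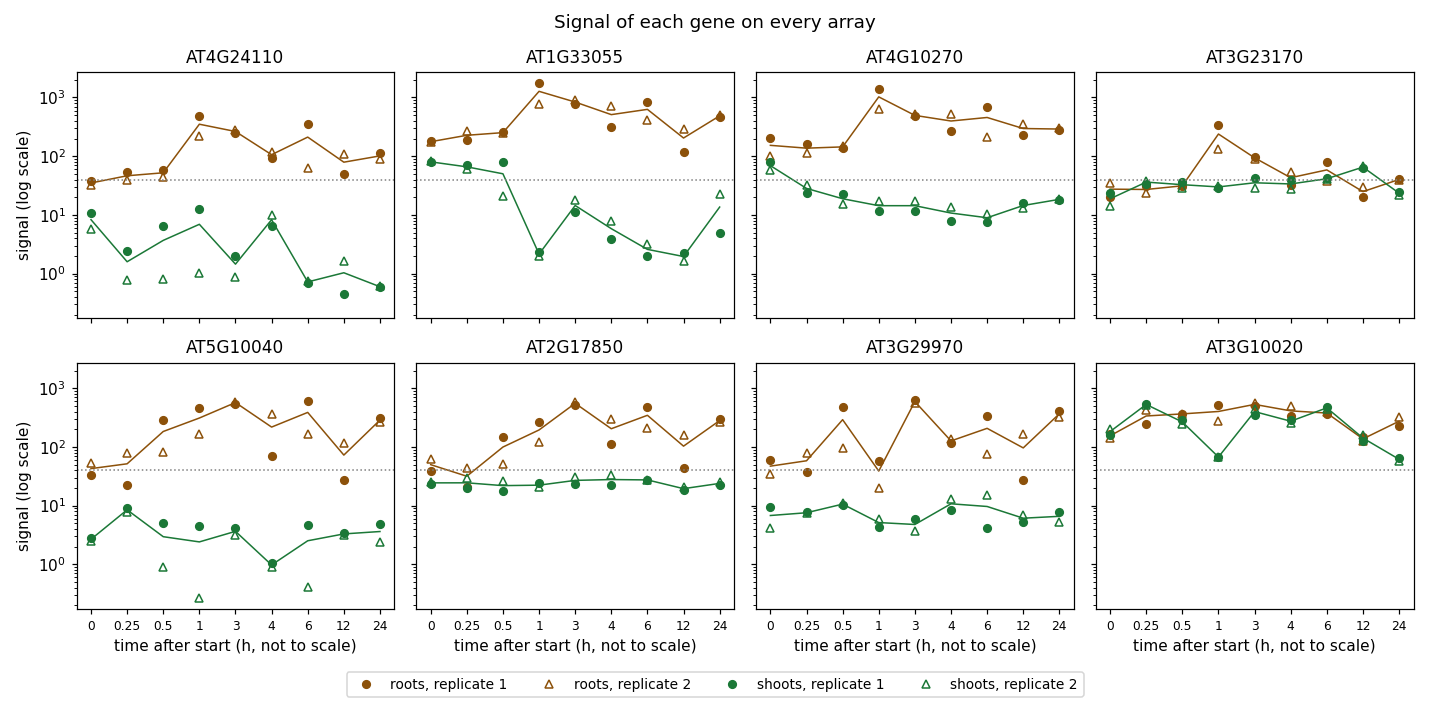
Signal of each of the 8 genes on every array (log axis) against time after the start (h, evenly spaced and not to scale), roots in brown and shoots in green. Filled circles are replicate 1, open triangles replicate 2, lines join the means of 2 arrays and the dotted line is the signal of 40 used as the filter. Root signals lie above shoot signals at all times for 5 genes, most root curves rise at 1 or 3 h, and AT3G10020 is the gene with signals of at least 40 on all 18 shoot arrays.

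Most members had higher signals in roots, the direction known when they were chosen. All 18 shoot arrays lay below all 18 root arrays for 5 of 8 members and for 29.1% of all probe sets, and nothing is read from this count, since 3 of the 5 passed the filter through root arrays alone. The differences are on the log2(signal + 10) scale, on which signals as low as most shoot ones are compressed, so the genes are not ranked by them. AT1G33055 had a lowest, median and highest signal of 119, 362 and 1760 in roots and 1.65, 9.55 and 81.3 in shoots (difference, shoots minus roots, -3.98 ± 0.155 SE). For AT5G10040 these values were 22.8, 164 and 611 in roots and 0.268, 3.14 and 9.24 in shoots (-3.64 ± 0.222). AT4G10270 ran from 102 over 272 to 1400 in roots and from 7.58 over 16.4 to 79 in shoots (-3.41 ± 0.136).

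AT4G24110, at 31.7, 90.8 and 481 in roots and 0.447, 1.33 and 12.8 in shoots, differed by -3.08 ± 0.16. AT3G29970 stood at 20, 107 and 618 against 3.71, 7.21 and 15.1 (-2.98 ± 0.213). For these 5 genes the lowest root array was above the highest shoot array. AT2G17850 overlapped slightly, since 17 of 18 root arrays exceeded the highest shoot array (20.4, 155 and 590 against 17.8, 23.8 and 33.2, -2.16 ± 0.164).

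AT3G10020 was carried by both organs, at 124, 343 and 562 in roots and 57.5, 255 and 535 in shoots (-0.5 ± 0.0827). AT3G23170 was low in both, at 20.5, 35.9 and 342 in roots and 14.4, 32.5 and 67.8 in shoots (-0.42 ± 0.102). The median difference of the 8 members was -3.03, beside -0.33 over all tested probe sets and -2.15 over 16 other hypoxia genes. Its size depends on the amount added before taking logs: it was -4.08 with none and -1.65 with 50. In samples of whole organs, fewer cells that carry a transcript and less transcript per cell cannot be told apart.

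The time course in roots asked which of these transcripts move over the 24 h after handling, with no stress given. Time since handling and hour of the day advanced together, and their parts were not tested apart. All 8 members changed over time (limma moderated F-test with Benjamini-Hochberg adjustment over all probe sets, adjusted p from 1.8e-05 to 0.0034), where 17.6% of all probe sets did. The lowest of 9 root means lay at 0 h for AT4G24110, AT1G33055 and AT5G10040 and the highest at 1 h for 4 members and at 3 h for the other 4. Against 0 h, 7 of 8 members were higher at 1 h and 8 of 8 at 3 h, beside 3.87 and 4.34% of all probe sets. Their median log2 changes were 2.54 and 2.39, beside -0.06 and -0.03 over all probe sets.

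Fewer members passed the threshold at the other times. At 4 h 2 members passed and at 6 h 5 did, with 2.47 and 3% of all probe sets higher. At 24 h, the same hour of the day as 0 h, 2 members were higher beside 1.44% of all, and the median change of the members was 1.35. At 0.25 and 0.5 h AT3G10020 was the 1 member that passed (3.05 and 0.941% of all probe sets higher). At 12 h the limma count was 0, with 1 member at an unadjusted p under 0.05. At 4, 6 and 24 h 6, 8 and 7 members had an unadjusted limma p under 0.05. The matching shares of all probe sets were not taken. The members' median changes at 4, 6 and 12 h were 1.35, 1.66 and 0.48, beside -0.03, -0.02 and -0.01 over all probe sets.

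In all, 26 of 64 changes passed in roots, each of them a rise, beside 2.66% of all changes of all probe sets. Without root 0 h replicate 2 the count was 12, and without 0 h replicate 1 it was 21. The 0 h root arrays also had the lowest signals of the 25S ribosomal RNA control, 1360 and 1210 against 1530 to 2630 on the other root arrays. With that signal as a covariate 5 rises passed: AT3G23170 at 1 h, AT2G17850 at 3 and 6 h and AT3G10020 at 0.5 and 3 h. The other 21 kept their direction, at a median of 1.93 with the covariate against 2.18 without it, and had adjusted p of 0.052 to 0.58. AT1G33055 rose by 2.65 at 1 h with the covariate against 2.67 without it (adjusted p = 0.075), whereas AT4G10270 at 3 h went from 1.71 to 0.94 (adjusted p = 0.45). Since the 25S signal was lowest at 0 h, the time to which all changes refer, its part and that of time cannot be told apart. Of the 26 rises, those of AT3G23170 at 1 h and of AT2G17850 and AT3G10020 at 3 h alone passed under all alternatives.

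**Figure D2:**
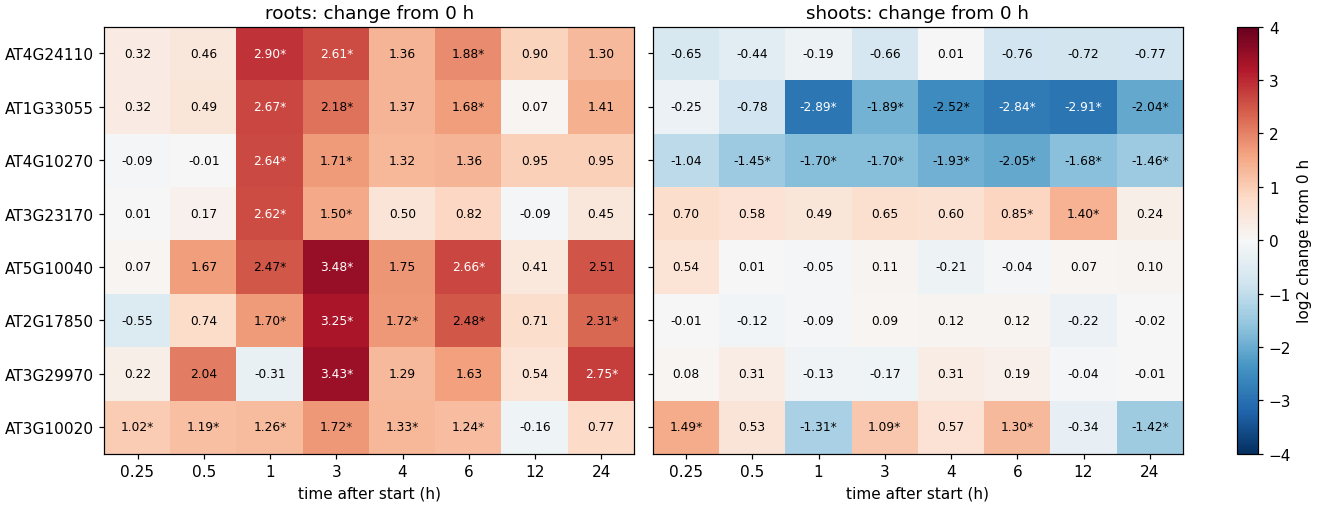
Log2 change from 0 h of each gene (rows) at each later time (columns) in roots and in shoots, on the log2(signal + 10) scale, from 2 arrays a group. An asterisk marks an adjusted p under 0.05 in the limma fit over all probe sets. Root changes are mostly rises, largest at 1 and 3 h, while in shoots AT1G33055 and AT4G10270 fell and AT3G10020 went both ways.

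A first set of genes had its highest root mean at 1 h: AT4G24110, AT1G33055, AT4G10270 and AT3G23170. In replicate 2 alone, AT4G24110 and AT1G33055 were higher at 3 h than at 1 h. AT4G24110 gave root signals of 38.2 and 31.7 at 0 h (replicates 1 and 2), 54.2 and 38.6 at 0.25 h, 59.3 and 45 at 0.5 h, 481 and 220 at 1 h, 253 and 274 at 3 h, 93.2 and 119 at 4 h, 359 and 63.9 at 6 h, 49.1 and 109 at 12 h, and 114 and 88.3 at 24 h. The jump thus fell between 0.5 and 1 h, the 1 and 3 h arrays overlapped, and the 6 h arrays lay far apart. The rise was 2.9 ± 0.48 on the log2 scale at 1 h (SE, limma adjusted p = 8.7e-04) and 2.61 ± 0.48 at 3 h (adjusted p = 0.0021). At 6 h it was 1.88 ± 0.48 (adjusted p = 0.022), a call that ended without 6 h replicate 1 (0.72) and without 0 h replicate 1 or 2 (1.99 and 1.78). Without 6 h replicate 2 that rise was 3.04. With no added amount before taking logs all these rises missed the threshold.

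AT1G33055 followed the same course at higher signals of its own probe set. Its root arrays read 178 and 175 at 0 h, 186 and 268 at 0.25 h, 256 and 248 at 0.5 h, 1760 and 785 at 1 h, 782 and 890 at 3 h, 317 and 704 at 4 h, 847 and 408 at 6 h, 119 and 289 at 12 h, and 463 and 510 at 24 h. Both arrays of 1 and 3 h exceeded all arrays of 0, 0.25, 0.5, 12 and 24 h, and those of 12 h straddled the 0 h level. The rises were 2.67 ± 0.47 at 1 h (SE, limma adjusted p = 0.0013), 2.18 at 3 h (adjusted p = 0.0062) and 1.68 at 6 h (adjusted p = 0.036). Single arrays decided some of these calls. The 1 h call ended without 1 h replicate 1 (2.09) and the 3 h call without 0 h replicate 2 (2.16) or 3 h replicate 2 (2.08). At 6 h it ended without 6 h replicate 1 (1.16) or either 0 h array (1.69 and 1.67).

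AT4G10270, the wound-responsive family member, stood at 204 and 102 at 0 h in roots, 159 and 115 at 0.25 h, 137 and 151 at 0.5 h, 1400 and 648 at 1 h, 475 and 516 at 3 h, 270 and 525 at 4 h, 702 and 211 at 6 h, 233 and 359 at 12 h, and 274 and 306 at 24 h. Its first 3 times did not differ beyond the spread of the 0 h arrays, and from 1 h on all root arrays were above the higher 0 h array. The rise was 2.64 ± 0.41 at 1 h (SE, limma adjusted p = 4.8e-04) and 1.71 at 3 h (adjusted p = 0.012). The 3 h call ended without 0 h replicate 2 (1.24) and without either 3 h array (1.76 and 1.65).

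AT3G23170 rose at 1 and 3 h. Its root signals were 20.5 and 34.4 at 0 h, 30.5 and 23.7 at 0.25 h, 30.5 and 32.1 at 0.5 h, 342 and 135 at 1 h, 96.9 and 90.8 at 3 h, 32.5 and 53.5 at 4 h, 79.3 and 37.5 at 6 h, 20.5 and 29.3 at 12 h, and 40.8 and 39.4 at 24 h. In all, 7 of its 18 root arrays reached the filter level of 40, all 4 of 1 and 3 h among them. The rise was 2.62 ± 0.31 at 1 h (SE, limma adjusted p = 4.1e-05), which passed under all alternatives, and 1.5 at 3 h (adjusted p = 0.0045).

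A second set, AT5G10040, AT2G17850 and AT3G29970, had its highest root mean at 3 h. In replicate 1 alone, AT5G10040 was higher at 6 h than at 3 h. No test compared it with the first set, and AT5G10040 and AT2G17850 were called at 1 h as well. AT5G10040 had root signals of 32.8 and 52.6 at 0 h, 22.8 and 80.3 at 0.25 h, 283 and 83.1 at 0.5 h, 455 and 166 at 1 h, 546 and 593 at 3 h, 71.3 and 364 at 4 h, 611 and 163 at 6 h, 27.2 and 118 at 12 h, and 310 and 263 at 24 h. At 0.5 h replicate 1 was already well above 0 h while replicate 2 was close to it. Rises of 2.47 ± 0.67 at 1 h, 3.48 at 3 h and 2.66 at 6 h passed (SE, limma adjusted p = 0.027, 0.0029 and 0.02). The 1 h call ended without 1 h replicate 1 (1.77) or either 0 h array (2.19 and 2.74). That at 6 h ended without 6 h replicate 1 (1.74) or either 0 h array (2.39 and 2.93). With no added amount before taking logs none of the 3 passed.

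AT2G17850, of the rhodanese family, read 38.6 and 61.1 at 0 h in roots, 20.4 and 42.9 at 0.25 h, 148 and 50.9 at 0.5 h, 267 and 122 at 1 h, 515 and 590 at 3 h, 112 and 296 at 4 h, 483 and 208 at 6 h, 44.1 and 162 at 12 h, and 295 and 267 at 24 h. Both arrays of 1, 3, 4, 6 and 24 h exceeded both 0 h arrays. The rise of 3.25 ± 0.49 at 3 h (SE, limma adjusted p = 4.5e-04) passed under all alternatives. Those at 1 h (1.7, adjusted p = 0.037), 4 h (1.72, 0.046), 6 h (2.48, 0.0044) and 24 h (2.31, 0.019) did not. The 1 h call ended without 1 h replicate 1 (1.17) or either 0 h array (1.43 and 1.98), the 6 h call without 6 h replicate 1 (1.89), and the 24 h call without any 1 of the 0 and 24 h arrays (2.03 to 2.58). At 4 h the call ended under 31 of 47 alternatives, among them leaving out 4 h replicate 2 (1.05).

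AT3G29970, the B12D family member, was the 1 gene that was not raised at 1 h. Its root signals were 59.5 and 34.6 at 0 h, 37.7 and 78.4 at 0.25 h, 486 and 95.8 at 0.5 h, 57.6 and 20 at 1 h, 618 and 566 at 3 h, 118 and 135 at 4 h, 339 and 75.4 at 6 h, 27.4 and 165 at 12 h, and 414 and 319 at 24 h. Both 0.5 h arrays were above both 1 h arrays, and the 3 h arrays were the highest of all 18. The change was -0.31 ± 0.64 at 1 h (SE, limma, not past the threshold), 3.43 at 3 h (adjusted p = 0.0024) and 2.75 at 24 h (adjusted p = 0.027). The 24 h call ended without 0 h replicate 2 (2.43) or either 24 h array (2.56 and 2.93).

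AT3G10020 had the smallest range of the members in roots, 1.88 on the log2 scale, and was the 1 member called before 1 h. Its root arrays gave 166 and 143 at 0 h, 243 and 430 at 0.25 h, 366 and 364 at 0.5 h, 524 and 279 at 1 h, 498 and 562 at 3 h, 330 and 492 at 4 h, 357 and 398 at 6 h, 150 and 124 at 12 h, and 226 and 321 at 24 h. Every array from 0.25 to 6 h was above both 0 h arrays and the 12 h arrays were back at the 0 h level. The rises at 0.25 and 0.5 h were 1.02 ± 0.25 (SE, limma adjusted p = 0.02) and 1.19 (0.019), those at 1 and 3 h 1.26 (0.0035) and 1.72 (2.9e-04), and those at 4 and 6 h 1.33 (0.0029) and 1.24 (0.0045). The 3 h rise passed under all alternatives. Leaving out 0 h replicate 2 ended the calls at 0.25 h (0.93), 0.5 h (1.09), 4 h (1.24) and 6 h (1.14). Leaving out 0.25 h replicate 2 (0.62), either 0.5 h array (1.19), 1 h replicate 1 (0.81) or 4 h replicate 2 (1.05) ended the call of that time.

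Across the 9 root means, the genes of the first set ran closely together, with Pearson r of 0.89 to 0.96 between any pair of AT4G24110, AT1G33055, AT4G10270 and AT3G23170. AT5G10040 and AT2G17850 had r = 0.95 with each other, but also 0.69 to 0.88 and 0.58 to 0.81 with the genes of the first set, so that the sets are not separate. AT3G29970 had r of 0.02 to 0.31 with the first set and 0.7 and 0.71 with AT5G10040 and AT2G17850. These values describe 9 means that share their arrays. The sets were formed by the time of the highest of these same means. A high r within a set is thus no separate evidence for it. In shoots, where most members were near the lowest signals, r over the 9 means lay between -0.6 and 0.83.

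The members also shared the differences between the 2 arrays of a root group. At 1 h replicate 1 was higher than replicate 2 for 8 of 8 members, by 0.89 to 1.4 on the log2 scale (median 1.13). Over all probe sets 45.8% were higher in replicate 1, with a median of -0.02 and an SD of 0.225. At least 2-fold differences toward replicate 1 were found for 7 members and for 0.424% of all probe sets. The other 16 hypoxia genes were all higher in replicate 1 too, with a median of 0.78.

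At 6 h replicate 1 was again higher for 7 of 8 members (median 1.43, 6 of them at least 2-fold), with AT3G10020 at -0.16, beside 0.63% of all probe sets at least 2-fold higher. All 16 other hypoxia genes went the same way, with a median of 1.07. At 4 h the order was turned: replicate 2 was higher for 8 of 8 members and 16 of 16 other hypoxia genes, with medians of -0.76 and -0.54, while 50% of all probe sets were higher in replicate 1. At 12 h replicate 2 was higher for 7 of 8 members, 5 of them at least 2-fold (0.133% of all probe sets), and AT3G29970 stood at 27.4 and 165. The replicates of 3 and 24 h were close, with member medians of -0.12 and 0.09.

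At 0.5 h the members split between the replicates. AT5G10040, AT2G17850 and AT3G29970 were 3.4, 2.9 and 5.07 times as high in replicate 1, while AT1G33055, AT4G10270, AT3G23170 and AT3G10020 had ratios of 1.03, 0.903, 0.95 and 1. Tissue markers and the signal of the 25S ribosomal RNA control are given for these arrays. At 0.5 h the median of the root genes was 782 in replicate 1, the lowest of all root arrays, and 987 in replicate 2, with 25S signals of 1530 and 1610. At 1 h the photosynthesis genes had a median of 36 on both arrays and the root genes of 969 and 1100, with 25S signals of 2350 and 2310. At 6 h the photosynthesis genes stood at 29.4 and 23.9, the root genes at 1080 and 1010, and the 25S signals at 2190 and 1670. At 12 h the root genes stood at 811 and 1000 and the 25S signals at 1810 and 1740. Their part in the replicate differences was not tested.

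**Figure D3:**
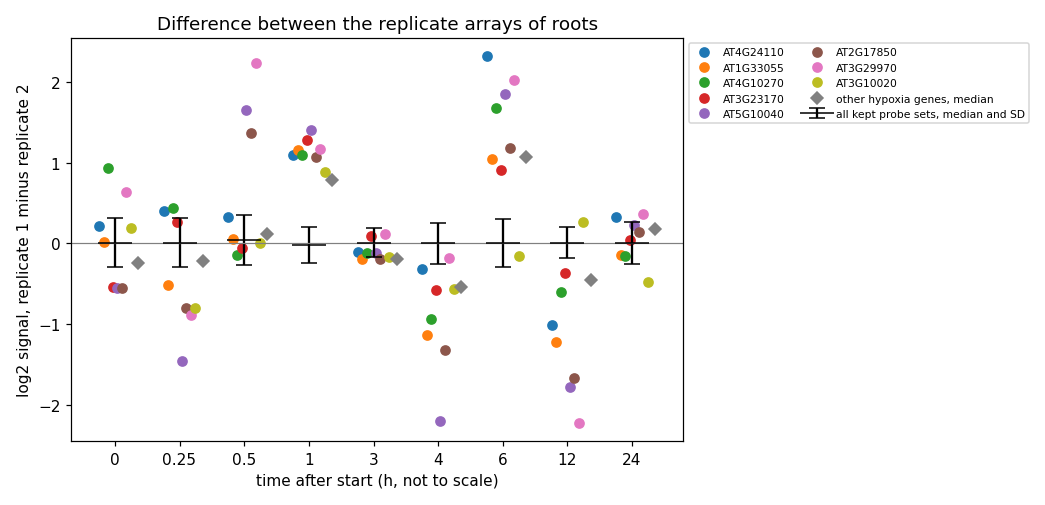
Difference in log2(signal + 10) between replicate 1 and replicate 2 of roots at each time (h, not to scale), 1 coloured point a gene, with the median of 16 other hypoxia genes as a grey diamond and the median and SD of all kept probe sets as a black bar. Nearly all genes lie above 0 at 1 and 6 h, below 0 at 4 h and mostly below at 12 h, while at 0.5 h AT5G10040, AT2G17850 and AT3G29970 lie highest.

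In shoots, 4 of 8 members changed over time, AT1G33055, AT4G10270, AT3G23170 and AT3G10020 (limma F-test, adjusted p = 1.1e-05, 0.0054, 0.024 and 1.5e-09), where 62.6% of all probe sets did. AT4G24110, AT5G10040, AT3G29970 and AT2G17850 stayed below 40 on all 18 shoot arrays and did not pass (adjusted p = 0.57, 1, 1 and 1). Of 64 changes against 0 h, 20 passed, 8 of them under all alternatives, and 20.4% of all shoot changes of all probe sets passed.

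AT1G33055 fell early in shoots. Its shoot arrays read 78.9 and 81.3 at 0 h, 70.1 and 61.6 at 0.25 h, 79.5 and 20.8 at 0.5 h, 2.3 and 2 at 1 h, 11.3 and 17.6 at 3 h, 3.82 and 7.83 at 4 h, 2 and 3.17 at 6 h, 2.26 and 1.65 at 12 h, and 4.89 and 22.3 at 24 h. From 1 h on, no shoot array came near the 0 h level. It fell by 2.89 ± 0.47 on the log2 scale at 1 h (SE, limma adjusted p = 2.0e-04), by 1.89 at 3 h (adjusted p = 0.0045), by 2.52 at 4 h (3.9e-04), by 2.84 at 6 h (4.8e-05), by 2.91 at 12 h (3.8e-05) and by 2.04 at 24 h (0.0052). The calls at 1, 6 and 12 h passed under all alternatives. Since the later signals lie far below 40, the sizes are set largely by the amount added before taking logs: the change at 1 h was -5.22 with none and -1.32 with 50, and at 12 h -5.37 and -1.32. The call at 3 h ended without 3 h replicate 1 (-1.7) and that at 24 h without 24 h replicate 1 (-1.48). With the 25S signal as a covariate the changes at 3 and 4 h were -1.91 and -2.54 and missed the threshold (limma adjusted p = 0.16 and 0.086).

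AT4G10270 fell as well. It stood at 79 and 59.1 at 0 h in shoots, 23.8 and 32.7 at 0.25 h, 22.5 and 15.2 at 0.5 h, 11.6 and 17.1 at 1 h, 11.5 and 17.2 at 3 h, 8.01 and 13.5 at 4 h, 7.58 and 10.3 at 6 h, 15.8 and 13.1 at 12 h, and 18.2 and 18.6 at 24 h. Every later array lay below both 0 h arrays. The fall passed from 0.5 h on and was largest at 6 h, by 2.05 ± 0.41 (SE, limma adjusted p = 4.1e-04); at 4 h it was by 1.93 (adjusted p = 0.0015), and both passed under all alternatives. The 0.5 h call (-1.45, adjusted p = 0.038) ended without 0 h replicate 1 (-1.27) or either 0.5 h array (-1.63 and -1.27). At 1 h (-1.7, adjusted p = 0.008) it ended without 0 h replicate 1 (-1.51) or 1 h replicate 1 (-1.53), and at 24 h (-1.46, adjusted p = 0.018) without 0 h replicate 1 (-1.28) or either 24 h array (-1.45 and -1.47). All its shoot arrays from 0.25 h on were below 40 as well, and with 50 added before taking logs the falls at 4 and 6 h alone passed (-0.97 and -1.01).

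At 0 h, where both genes had their highest shoot mean, the share of root material given above was 5.41 and 2.33%, the former being the highest of all shoot arrays. At 0 h the mean shoot signal was 45.3% of the mean root signal for AT1G33055 and 45.1% for AT4G10270. The probe sets behind the share were chosen on these arrays for shoot signals at least 16-fold below roots. That choice keeps the share low, so these figures are not judged against it. The part of root material in the falls was not tested. At 12 h the mean shoot signal was 0.958 and 4.88% of the mean root signal, where the share was 1.12 and 1.38%. For AT4G24110, whose shoot mean was 8.29 ± 3.68 at 0 h (SD, n = 2), the figure at 0 h was 23.7%.

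AT3G10020 went both up and down in shoots. Its arrays gave 160 and 205 at 0 h, 535 and 522 at 0.25 h, 282 and 250 at 0.5 h, 67.4 and 67.1 at 1 h, 354 and 445 at 3 h, 288 and 260 at 4 h, 484 and 441 at 6 h, 125 and 158 at 12 h, and 65.7 and 57.5 at 24 h. The replicates lay close together beside the changes over time, and the signal climbed above the 0 h arrays, dropped below them at 1 h, climbed again and was lowest at 24 h. It rose by 1.49 ± 0.25 at 0.25 h, 1.09 at 3 h and 1.3 at 6 h (SE, limma adjusted p = 4.4e-04, 0.0024 and 2.5e-04). It fell by 1.31 at 1 h and 1.42 at 24 h (adjusted p = 0.001 and 6.2e-04), and both falls passed under all alternatives. With the 25S signal as a covariate the 3 rises were 1.25, 0.83 and 1.01 and missed the threshold (adjusted p = 0.14, 0.26 and 0.17). That control was 1030 and 947 on the 0 h shoot arrays, 2060 and 2280 at 0.25 h, 1380 and 2380 at 1 h, 2540 and 2070 at 3 h, 2660 and 2410 at 6 h, and 1100 and 815 at 24 h. It was higher than at 0 h at 0.25, 1, 3 and 6 h, and at 24 h its arrays lay on both sides of those at 0 h. The part of that control in the changes of the gene was not tested apart from time.

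AT3G23170 was highest at 12 h in shoots, 1 h before the lights went off. It gave 23.2 and 14.4 at 0 h, 34.2 and 38.2 at 0.25 h, 36.3 and 29.1 at 0.5 h, 29.1 and 30.8 at 1 h, 42 and 28.5 at 3 h, 39.8 and 27.5 at 4 h, 41.7 and 40.9 at 6 h, 62.5 and 67.8 at 12 h, and 24.9 and 22.1 at 24 h. The 12 h arrays were the highest of all 18 and the times from 0.25 to 4 h overlapped. The rise was 1.4 ± 0.31 at 12 h (SE, limma adjusted p = 0.0011), which passed under all alternatives, and 0.85 at 6 h (adjusted p = 0.035). The 6 h call ended without 0 h replicate 2 (0.63) or either 6 h array (0.84 and 0.86), and also with 50 added before taking logs, with all arrays set to a common distribution or median, and with the 25S covariate (0.33).

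By time, AT3G10020 was the 1 member higher in shoots at 0.25 and 3 h, beside 7.74 and 13.8% of all probe sets. AT3G23170 and AT3G10020 were higher at 6 h (18.7% of all) and AT3G23170 at 12 h (18.5%). AT4G10270 was lower at 0.5 h (2.33% of all). At 3, 4, 6 and 12 h AT1G33055 and AT4G10270 were lower, with 11, 9.49, 15.9 and 15.9% of all probe sets lower. At 1 and 24 h these and AT3G10020 were lower, 3 of 8 members, beside 5.47 and 7.76% of all.

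The limma F-test of a difference between the time courses of the organs passed for 8 of 8 members, with adjusted p from 2.8e-06 to 0.015, and for 40.9% of all probe sets. For AT4G24110, AT5G10040, AT3G29970 and AT2G17850, kept by the filter through roots alone and under 40 on every shoot array, this sets a course in roots against signals below the filter level, so it says no more than the change in roots. At 1 h, 5 members changed unlike in shoots and roots (11.1% of all probe sets), at 3 h 6 (16.2%) and at 6 h 5 (20.9%). AT1G33055 moved in opposite directions at 1 h, up in roots and down in shoots, a difference of -5.56 ± 0.66 on the log2(signal + 10) scale (SE, shoots minus roots, adjusted p = 1.1e-05). Its size is uncertain, because the shoot signals of 2.3 and 2 lie far below 40 and the shoot change alone ran from -5.22 to -1.32 with the amount added. AT4G10270 likewise rose in roots (2.64) and fell in shoots (-1.7) at 1 h, a difference of -4.33 ± 0.58 (SE, limma adjusted p = 4.8e-05). Its shoot signals at 1 h were below 40 too. AT3G10020 also parted at 1 h (-2.57 ± 0.35, adjusted p = 6.2e-05) and at 24 h (-2.19 ± 0.35, adjusted p = 9.0e-04). At 0.25 h and 6 h its changes in the organs were 1.02 and 1.49, and 1.24 and 1.3, for roots and shoots in turn. AT3G23170 differed at 1 h by -2.13 ± 0.43 (adjusted p = 0.0034), with the rise in roots, and at 12 h by 1.49 ± 0.43 (adjusted p = 0.017), with the rise in shoots.

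**Figure D4:**
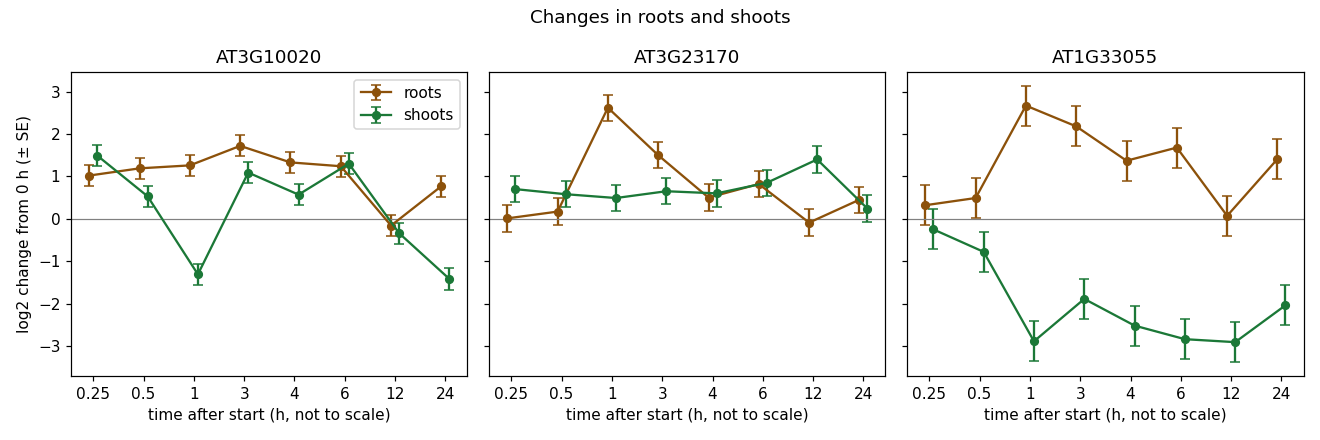
Log2 change from 0 h (± SE of the limma fit, 2 arrays a group) of AT3G10020, AT3G23170 and AT1G33055 in roots (brown) and shoots (green) against time (h, not to scale). The organs part at 1 h for all 3 genes, the courses of AT3G10020 lie closer from 3 to 12 h, AT3G23170 is higher in shoots at 12 h and AT1G33055 stays low in shoots from 1 h on.

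Other genes of the low-oxygen response were read from a list of 42, of which the probe table named 17 and 16 passed the filter. In roots 13 of the 16 changed over time, beside 17.6% of all probe sets. In shoots 9 of the 16 did, beside 62.6% of all, so nothing is read from the shoot count. Higher than at 0 h in roots were 9 of 16 at 1 h and 14 of 16 at 3 h, beside 3.87 and 4.34% of all probe sets. Their median changes were 1.24 and 1.2. The transcriptional repressor HRA1 (AT3G10040) had the widest range in roots, 4.14, and went from a mean of 38.9 at 0 h to 872 at 1 h (4.14 ± 0.42 SE, limma adjusted p = 7.9e-06). CML38, a calmodulin-like protein, rose by 3.2 at 1 h and 3.23 at 3 h (adjusted p = 0.0011 each). AT5G66985 rose by 1.65 (adjusted p = 8.2e-04) and AT3G27220 by 1.83 (0.0022) at 1 h. PDC2, a pyruvate decarboxylase of ethanol fermentation, rose by 2.19 at 3 h in roots (adjusted p = 0.0013), and HRU1 (AT3G03270), a universal stress protein of the hypoxia response, by 1.17 (0.016).

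In shoots the widest ranges of that list were those of AT4G27450 (3.9), PDC2 (2.9), AT1G72940 (2.5) and CML38 (2.4). AT4G27450 fell by 2.91 ± 0.37 at 12 h (SE, limma adjusted p = 1.7e-06), AT1G72940 by 1.58 at 6 h (adjusted p = 5.4e-04), and PDC2 rose by 2.1 at 12 h (adjusted p = 1.5e-04). HRA1 stayed between 7.68 and 19.3 on all shoot arrays.

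The probe sets most like the members were sought among the 8117 kept probe sets with 1 gene. The measure was Pearson r with the mean member profile over 18 group means, after the mean of each tissue was removed. The 5 highest were AT4G39675 (r = 0.85), HRA1 (0.83), AT4G31020 (0.83), CML38 (0.82) and AT5G37670 (0.8), of which 3 were in the list of other hypoxia genes. AT5G37670 was below 40 on all shoot arrays and on most root arrays. Single members had partners of their own. AT4G24110 and AT3G23170 were most like HRA1 (0.95 and 0.83), AT5G10040 and AT2G17850 most like each other (0.93), AT4G10270 most like AT5G66985 (0.86) and AT3G29970 most like HRU1 (0.79). AT1G33055 was most like AT1G03610 (0.84), and AT3G10020 most like the tetraspanin gene TET5 (0.91), which is not in the list. All these values share the same arrays.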

How the data were processed

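Transcripts were measured on 36 Affymetrix ATH1 arrays, 2 for each of 18 groups. The deposited intensity of each of 22810 probe sets was made with MAS5 (no version given), per the submitters' processing notes. Each array had been scaled by the authors: its mean without the lowest and highest 2% lay between 100.007 and 100.01. Here 10 was added, log2 was taken, 64 control probe sets were set aside and those reaching 40 on 2 or more arrays were kept (15091). limma 3.58.1 in R 4.3.3 fitted 18 group means with 18 residual and 4.06 prior degrees of freedom. An adjusted p under 0.05 (Benjamini-Hochberg over all kept probe sets, 2-sided) was the threshold. The number of arrays limits the precision.

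The members, the lists and the tests were chosen with earlier results of these data known. All members were named, with the probe sets most like them and the 4 other hypoxia genes of widest range in each tissue. Of the probe sets, 13513 had 1 gene, 503 several and 8794 none in the probe table, and 13436 of the first were matched to the TAIR10.1 gene table. Replicate numbers were not used as pairs, since deviations of same-numbered shoot and root arrays correlated at -0.115 to 0.0502. The fit was tested on simulated data. Promoter and protein sequences were not used here.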

Additional observations from a re-analysis of the deposited data

Results flagged for a closer look

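Time courses differed between roots and shoots for all 8 members by the limma F-test of the difference (2 arrays a group), with adjusted p of 2.8e-06 for AT3G10020, 3.6e-06 for AT1G33055, 4.9e-05 for AT4G10270, 7.1e-05 for AT3G23170, 0.003 for AT2G17850, 0.005 for AT4G24110 and 0.015 for both AT5G10040 and AT3G29970. Among all tested probe sets 40.9% passed the same test. For AT4G24110, AT5G10040, AT3G29970 and AT2G17850 all 18 shoot signals were below 40, so the difference lies between a course in roots and signals below the filter level in shoots.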

How the results depend on the processing

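Alternatives covered the amount added before taking logs, the filter, the scaling, the prior, a fit of 1 tissue, the replicate block, the 25S covariate and leaving out each array in turn. No call turned its direction. The members' median difference of shoots against roots was -4.08 with nothing added and -1.65 with 50 added. The 26 root changes became 16 with nothing added, 15 with roots fitted alone, 5 with the 25S covariate and 12 to 33 when single arrays were left out. With 50 added, 2 members changed over time in shoots, and with roots fitted alone 8 other hypoxia genes changed in roots. With the replicate block 25 root changes passed, AT2G17850 at 4 h being the call lost, and the shoot count stayed at 20. The remaining counts stayed within 1.5 times. In shoots 14 of 20 changes and in roots 9 of 26 passed in every fit without 1 array, in which the spread of the lone remaining array was taken from the other groups. Signals under 40 have no dependable order, which limits the shoot values of all members but AT3G10020, the falls of AT1G33055 and AT4G10270 included. In roots both 0 h arrays of AT4G24110 and AT3G23170 were under 40. The same held for 1 of the 0 h root arrays of AT5G10040, AT3G29970 and AT2G17850. The sizes of the root rises of these genes are limited likewise.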
